A study of Mus musculus with 10 samples.

Results

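The genes described here are 9 genes by which resident macrophages of fat are commonly recognised: *Mrc1*, *Cd163*, *Lyve1*, *Timd4*, *Folr2*, *Clec10a*, *F13a1*, *Cbr2* and *Retnla*. They were chosen by name, and all probes of the array that carry one of these names were taken, which gave 11 of 55681 probes, or 9 of 34797 gene names. *F13a1* and *Cbr2* had 2 probes each and the other genes 1. Of the 11 probes, 9 were bright enough to be tested, out of 25132 on the array, and these 9 probes cover 7 of the 9 genes.

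The RNA came from epididymal white adipose tissue (eWAT), the fat pad beside the epididymis, of 10 adult male C57BL/6JOlaHsd wildtype mice. All 10 mice belonged to 1 group. They were 9 weeks old at the start, received a low fat diet for 3 weeks and a high fat diet for 12 weeks at 29°C, and were then injected once a day for 5 days with the iron chelator desferrioxamine (DFO) at 100 mg/kg body weight, before they were killed on day 6 after 2 hours without food. On the array of each mouse, its own RNA carried the dye Cy5, and a common pool, the same on all 10 arrays, carried Cy3. The pool was made from all mice of the wider study, controls included, so that it is a reference and not a control group. No uninjected mice were analysed here, and no value below is an effect of DFO.

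Resident macrophages settle in the stroma of fat and along its vessels, where they take up dead cells, debris and iron-containing proteins through surface receptors. Several of their genes are raised by interleukin 4 and interleukin 13 through the transcription factor STAT6, which is the classical pattern called alternative activation. In obese fat another kind of macrophage, the lipid-associated macrophage, gathers around dying adipocytes and is marked by *Trem2*, a lipid receptor. *Adgre1*, which encodes F4/80 and is named *Emr1* on this array, is expressed by tissue macrophages of both kinds. In RNA of whole tissue, fewer cells of a type and less RNA per cell cannot be told apart.

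The values depend on where the 60 bases of each probe bind. On mouse genome build mm9 the *Folr2* probe lies on chromosome 7 at 108988771 to 108988830 and the second *Cbr2* probe on chromosome 11 at 120592059 to 120592118, both on the minus strand. The second *F13a1* probe lies on chromosome 13 at 37063829 to 37063888 on the minus strand, and the *Cd163* probe on chromosome 6 at 124270436 to 124270495 on the plus strand. These 4 probes are shown because each can be read in at least 1 frame without a stop codon, and because they stand for a gene that was high in the mice with the most *Adgre1* (*Folr2*), one that was low in them (*Cbr2*), a dim second probe (*F13a1*) and a probe near background (*Cd163*). No letters are capitalised, since no part of a probe matters more than another.
Folr2: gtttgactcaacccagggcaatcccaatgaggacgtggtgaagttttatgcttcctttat
Cbr2 probe 2: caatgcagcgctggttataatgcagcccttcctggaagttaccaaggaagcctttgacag
F13a1 probe 2: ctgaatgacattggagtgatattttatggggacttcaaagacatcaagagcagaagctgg
Cd163: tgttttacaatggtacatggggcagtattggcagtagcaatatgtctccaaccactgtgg

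The other probes are given by position on mm9. The *Retnla* probe lies on chromosome 16 at 48844447 to 48844506 (plus strand) and the *Mrc1* probe on chromosome 2 at 14253273 to 14253332 (plus strand). The *Lyve1* probe lies on chromosome 7 at 117994171 to 117994230 (minus strand), and those of *Timd4* and *Clec10a* on chromosome 11 at 46657173 to 46657232 and 69984254 to 69984313 (both plus strand). The first probe of *F13a1* lies on chromosome 13 at 36959214 to 36959273 and the first probe of *Cbr2* on chromosome 11 at 120590825 to 120590884 (both minus strand). Where a gene had 2 probes, the brighter is called probe 1.

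All values below are log2 ratios of a mouse over the common pool, so that a value of 1 is a doubled signal in the mouse. Dyes were not swapped, and a log2 ratio therefore holds any dye bias of its probe. The ratios were compared between mice and never tested against 0. The 10 mice did not spread evenly. The first principal component of 25044 expressed probes held 76.2% of the variance, and its widest gap, 0.513 of its range, set mice 4, 5, 6 and 7 apart from the other 6. The same 4 mice had the highest values of *Adgre1* (1.23 to 1.56, against -1.52 to 0.05 in the other mice) and of *Trem2* (1.10 to 1.52, against -2.43 to 0.09). They are not a group of the study, and nothing in the labels tells them from the other mice, so their values are given as they are and no test compares them with the rest. Of 25113 probes, 4831 (19.2%) had all 4 of these mice above all others, and 5822 (23.2%) had all 4 below.

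*Retnla*, which encodes the secreted protein RELM-alpha, varied most among the 9 genes. Its log2 ratio was 0.34 in mouse 1, -1.53 in mouse 2, -0.06 in mouse 3, -3.54 in mouse 4, -3.06 in mouse 5, -2.70 in mouse 6, -3.23 in mouse 7, 0.44 in mouse 8 and 1.08 in mouse 9. Mice 4, 5, 6 and 7 were therefore the lowest, mouse 2 stood between them and the rest, and the highest mouse lay 24.6-fold above the lowest. The spot of mouse 10 had been marked by the scanner software as an outlier in Cy5 and was left out of every value here. With it kept, mouse 10 stood at 1.11. The spots themselves were far above background, with a mean Cy5 intensity of 3527 in mouse 4 and 95559 in mouse 9.

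The enzymes *F13a1* and *Cbr2* also had mice 4 to 7 lowest and mouse 2 next on their brighter probes. *F13a1* encodes the A chain of coagulation factor XIII, which cross-links fibrin. Its probe 1 had log2 ratios of 0.75, -0.36 and 0.11 in mice 1 to 3, of -1.61, -1.15, -1.24 and -1.45 in mice 4 to 7, and of 0.39, 0.45 and 0.59 in mice 8 to 10. Mice 4 to 7 were all below the others, and the range came to 5.11-fold. Probe 2 of *F13a1* was dim, with a mean Cy5 intensity between 55.6 and 153, close to the background. It ran from -0.43 to 0.40, and there mouse 2 (-0.28) lay among mice 4 to 7 (-0.43 to -0.22), so that the mice overlapped.

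*Cbr2* encodes carbonyl reductase 2, which reduces carbonyl compounds. Probe 1 had log2 ratios of 0.66, -0.09 and 0.28 in mice 1 to 3, of -1.15, -0.83, -0.95 and -1.07 in mice 4 to 7, and of 0.38, 0.38 and 0.36 in mice 8 to 10. Probe 2, whose sequence is printed above, ran from -0.69 to -0.43 in mice 4 to 7 and from 0.16 to 0.88 in the others. Both probes thus had mice 4 to 7 below all others, with a range of 3.51-fold on probe 1 and 2.96-fold on probe 2.

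The uptake receptors did not move as 1 set. *Lyve1* encodes a hyaluronan receptor that lymphatic endothelium also carries. Its log2 ratio was 0.62, 0.14 and -0.03 in mice 1 to 3, -1.61, -0.49, -1.07 and -0.87 in mice 4 to 7, and 0.35, 0.64 and 0.37 in mice 8 to 10. Mice 4 to 7 were below all others, although with median centring in place of loess the mice overlapped for *Lyve1*. Of the list of lymphatic endothelium, *Prox1*, *Flt4*, *Mmrn1* and *Reln* were not bright enough to be tested, and *Pdpn* ran from 0.42 to 0.63 in mice 4 to 7 and from -0.12 to 0.63 in the others.

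*Folr2*, the folate receptor beta, went the other way. It stood at -0.13, -0.06 and 0.04 in mice 1 to 3, at 0.93, 0.97, 0.70 and 1.09 in mice 4 to 7, and at -0.14, -0.50 and -0.31 in mice 8 to 10, a range of 3.01-fold. *Mrc1* encodes the mannose receptor CD206, which binds mannose-bearing glycoproteins. Its values were 0.45, -0.16 and 0.12 in mice 1 to 3, 0.49, 0.60, 0.47 and 0.62 in mice 4 to 7, and -0.15, -0.22 and -0.12 in mice 8 to 10. Mice 4 to 7 were the highest for both receptors, but for *Mrc1* mouse 1 (0.45) lay close to the lowest of them (0.47).

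Against *Adgre1*, both receptors were lower in mice 4 to 7, the mice with the highest *Adgre1*. The log2 ratio of *Folr2* minus that of *Adgre1* lay between -0.55 and -0.41 in these mice and between -0.11 and 1.02 in the others. For *Mrc1* the same difference lay between -0.93 and -0.76, against -0.21 to 1.30. No mouse of the first set reached the others for either gene, and the same held for every other member probe. Subtracting *Adgre1* lowers any gene that rises less than it in these mice. The difference is therefore no trait of these receptors. These differences contrast log2 ratios of separate probes over the pool and are no ratio of RNA amounts.

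*Clec10a*, the galactose-type lectin MGL1, varied least among the tested genes. It ran from -0.04 to 0.65 in mice 4 to 7 and from -0.06 to 0.35 in the others, and mouse 6 was the highest. This rank depended on the scaling. With median centring *Clec10a* ran from 0.66 to 1.56 in mice 4 to 7 and from -0.30 to 0.86 in the others, a wider range than that of *Mrc1*. *Cd163*, the scavenger receptor for haemoglobin bound to haptoglobin, and *Timd4*, a receptor for phosphatidylserine on dying cells, were near background. *Cd163* was well above background in Cy5 on 7 arrays and in Cy3 on 3, and *Timd4* on 5 and 1, so neither was tested. *Cd163* ran from -0.28 to -0.11 in mice 4 to 7 and from 0.15 to 0.60 in the others, and *Timd4* from -0.46 to 0.18 and from -0.05 to 0.26. A value so near background understates a difference.

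**Figure D1:**
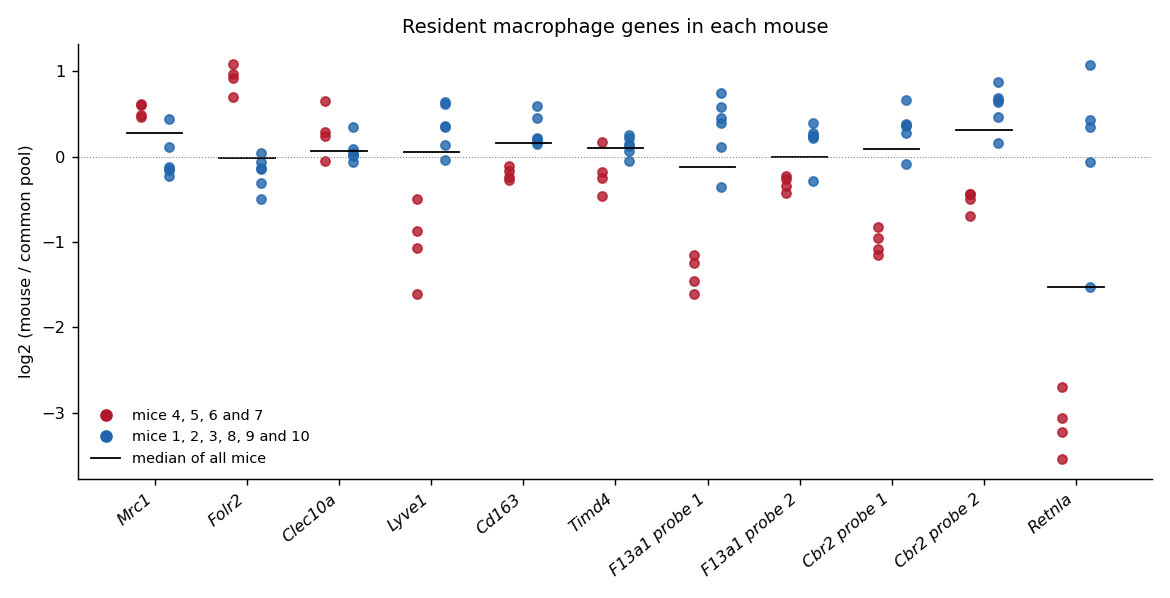
Log2 ratio of each mouse over the common pool (y axis) for the 11 probes of the 9 genes (x axis). Red points are mice 4, 5, 6 and 7, blue points the other 6 mice, and the black line is the median of all mice measured. *Mrc1* and *Folr2* have the red points above all blue ones, *Lyve1*, *Cd163*, *F13a1* probe 1, *Retnla* and both *Cbr2* probes have them below, and *Clec10a*, *Timd4* and *F13a1* probe 2 overlap.

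Among the 9 tested probes, mice 4 to 7 were thus above all others for 2 probes and below all others for 5, while 2 overlapped. The corresponding shares of all probes were the 19.2% and 23.2% given above. The positions were the same without background subtraction, in the scanner software's own log ratios, in the normalized table of the authors and with median centring, apart from *Lyve1* with median centring, *F13a1* probe 2 without background subtraction (below), and *Cd163* in the authors' table (overlap). Median centring moved the median of all expressed probes by -0.18 to 0.62 between arrays, and under it *Mrc1* stood at 1.17 to 1.57 in mice 4 to 7 and at -0.13 to 0.94 in the others.

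The arrays were paired on 5 slides, and 2 slides held 1 mouse of each side, with mice 3 and 4 on slide 2 and mice 7 and 8 on slide 4. The log2 ratio of *Retnla* in mouse 4 minus that in mouse 3 was -3.48, and in mouse 7 minus mouse 8 it was -3.66. The same 2 differences were -1.72 and -1.85 for *F13a1* probe 1, -1.43 and -1.45 for *Cbr2* probe 1, and -1.57 and -1.22 for *Lyve1*. They were 0.88 and 1.23 for *Folr2*, 0.37 and 0.77 for *Mrc1*, and 0.02 and 0.15 for *Clec10a*. For these members, apart from *Clec10a*, the mouse of the set of 4 thus lay on the same side within a slide as over all mice. Over all 5 slides, limma's F test called no probe of 25044 at an adjusted p of 0.05, and 1010 had an unadjusted p below 0.05. *Retnla* could not be fitted in this test because of its missing spot.

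The first tested comparison asked which genes varied between mice more than the pool did between arrays, since the same pool was on every array. All 9 tested probes did, by a Pitman-Morgan test (which compares the variances of 2 paired measures) with p-values adjusted over 25132 probes after Benjamini and Hochberg, and so did 60.0% of all these probes. The SD of log2 Cy5 was 19.0 times that of Cy3 for *Retnla* (adjusted p = 2.1e-07) and 16.6 times for *Lyve1*. It was 9.07 and 3.67 times for the probes of *F13a1*, 6.66 and 7.32 times for those of *Cbr2*, 8.49 times for *Folr2*, 5.71 times for *Clec10a* and 5.17 times for *Mrc1*. The median SD of log2 Cy5 over all tested probes was 0.199 and that of Cy3 0.081. *Mrc1* lost its call with median centring (adjusted p = 0.067) and without normalization between arrays (adjusted p = 0.069), and *Clec10a* in the latter (adjusted p = 0.063).

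**Figure D2:**
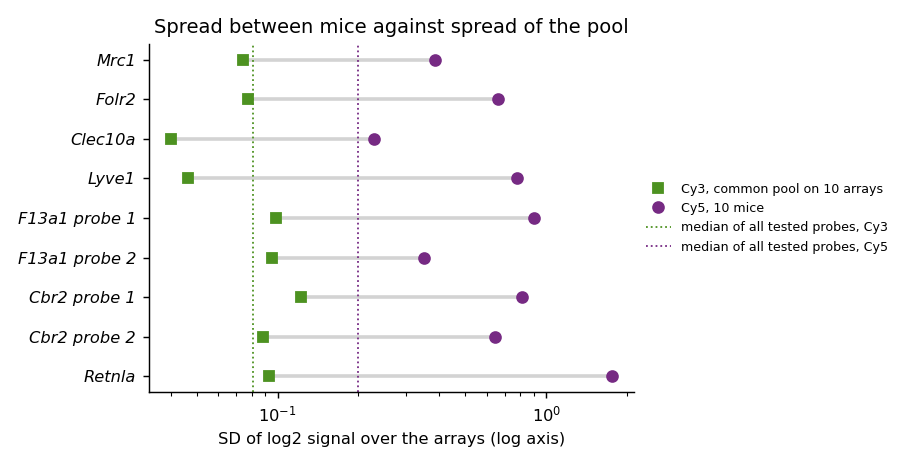
SD of the log2 signal over 10 arrays (x axis, log scale) for the 9 tested probes (y axis). Circles are Cy5, which holds 1 mouse per array, squares are Cy3, which holds the common pool, and dotted lines are the medians of all tested probes. Each circle lies to the right of its square, from 3.67 times its SD for *F13a1* probe 2 to 19.0 times for *Retnla*.

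The second comparison asked whether the resident genes followed *Adgre1*, a gene of tissue macrophages, or *Trem2*, a gene of lipid-associated macrophages. Slopes were fitted only over mice 1, 2, 3, 8, 9 and 10. Mice 4 to 7 were left out because they were apart on the first component and highest on both measures. The widest gap of the measures themselves was 0.385 of the range for *Adgre1* and 0.254 for *Trem2*. Neither reached the 0.4 set for separate clusters, which the component passed. A slope is the change in a gene's log2 ratio for each unit of log2 ratio of *Adgre1* or *Trem2*. With *Adgre1*, none of the 9 probes passed limma's test at an adjusted p of 0.05, while 1.90% of all 25128 probes had a called positive slope and 0.744% a called negative one. Without adjustment, 2565 probes had a positive and 1811 a negative slope at a p below 0.05. *Retnla* had a slope of -1.45 (SE 0.295, limma adjusted p = 0.051) and *Folr2* of 0.30 (SE 0.093, adjusted p = 0.138). The *Retnla* slope passed the test when its outlier spot was kept (-1.55, adjusted p = 0.033), without mouse 1, with slide as a random block and with other filters on dim probes.

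With *Trem2*, *Retnla* was the only member that passed. Its slope was -0.95 (SE 0.17, 95% confidence interval -1.34 to -0.55, limma adjusted p = 0.033), over 5 mice since that of mouse 10 was missing, and 0.692% of all probes had a called negative slope and 2.22% a positive one. Among the 5 mice, *Retnla* was highest where *Trem2* was lowest (mouse 9, at -2.43) and lowest where *Trem2* was highest (mouse 2, at 0.09). The call was lost without mouse 1 (limma adjusted p = 0.054) and without mice 2 and 9 together (0.542), which left *Retnla* only mice 1, 3 and 8. It was also lost with median centring, in the scanner software's log ratios and in the authors' table. Without mouse 10 the limma adjusted p was 0.072. The 5 *Retnla* values fitted there were the same, so this p moved through the other probes alone. The slope stayed between -1.14 and -0.86 in these alternatives. With the outlier spot kept it was -0.99 (adjusted p = 0.015). Such a fall was not particular to *Retnla*. Of the 9 adipocyte genes tested, 2 had a called negative slope on *Trem2* and none a positive one, with a median slope of -0.32. These were *Retn* (-0.88, limma adjusted p = 0.005, without mouse 9) and *Cfd* (-0.80, adjusted p = 0.023). Both were also called on *Adgre1* (-1.40 and -1.31, limma adjusted p = 0.030 and 0.026). Whether these slopes share a source with that of *Retnla* was not tested.

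*Folr2* had a positive slope on *Trem2* of 0.19 (SE 0.055, adjusted p = 0.110), and the slopes of *Lyve1* (-0.20), *F13a1* (-0.31 and -0.21) and *Cbr2* (-0.14 and -0.10) were negative without passing the test. *Mrc1* and *Clec10a* had slopes of 0.07 and 0.00. The 95% confidence interval for *Mrc1* ran from -0.16 to 0.30 and that for *Clec10a* from -0.16 to 0.16, so that slopes within these bounds remain possible. Pearson's r with *Trem2* over the 6 mice was 0.90 for *Folr2* (exact permutation p = 0.0125, two-sided), with Spearman's rho of 0.94 (exact permutation p = 0.017), and r was -0.92 for *Retnla* with its outlier spot kept (exact permutation p = 0.0097), with rho of -0.94 (exact permutation p = 0.017). Adjusted over the 18 relations computed, r had p = 0.108 and rho had p = 0.075 for both genes, so none passed. Without mice 9 and 2, which lay farthest from the median of *Trem2*, r was 0.98 for *Folr2* and -0.997 for *Retnla* over 4 mice. The *Retnla* value again had its outlier spot kept. Neither r over 4 mice was tested, and limma's call for *Retnla* was lost without mice 9 and 2, as given above. The relation of *F13a1* probe 2 to *Trem2* rested on those mice, as its r of -0.79 became 0.03 without them.

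**Figure D3:**
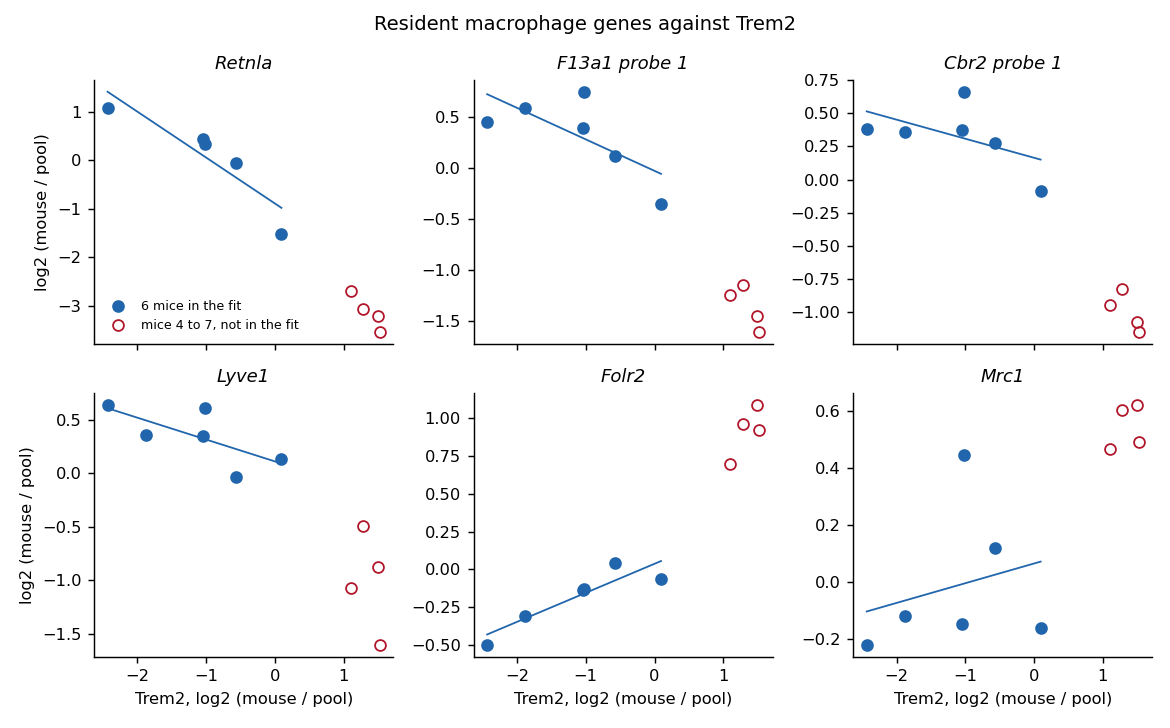
Log2 ratio over the pool of 6 probes (y axes, each with its own scale) against that of *Trem2* (x axis). Filled points are the 6 mice in the fit (5 for *Retnla*), lines are the fitted slopes, and open points are mice 4 to 7, which were not fitted. *Retnla* falls along *Trem2* with a slope of -0.95, and *Folr2* rises with a slope of 0.19 that did not pass the test.

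The promoter of *Retnla* was looked at because this gene had the widest range. RefSeq promoters on build GRCm38.p6 were found for 7 of the 9 genes, 9 promoters in all, and the 250 bases before each start were searched on both strands. The first motif, GAGGAAGT (on the other strand ACTTCCTC), is of the kind bound by PU.1, a factor that macrophages need. The second, TTCNNNNGAA, is of the kind bound by STAT proteins. Of the 9 promoters only that of *Retnla* held either motif, and it held both, without overlap. Of all 32851 promoters in the table, 2.44% held the first and 5.85% the second. The 250 bases of the *Retnla* promoter at chr16:48842359-48842608 (GRCm38.p6, plus strand) are printed with both matches in capitals, the first starting 198 and the second 145 bases before the gene's start.
Retnla: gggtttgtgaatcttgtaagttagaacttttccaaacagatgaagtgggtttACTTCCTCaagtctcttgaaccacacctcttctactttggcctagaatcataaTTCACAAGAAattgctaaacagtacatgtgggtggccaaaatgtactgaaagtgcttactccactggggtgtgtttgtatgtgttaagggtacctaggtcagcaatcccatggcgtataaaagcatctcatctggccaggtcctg
A match is a description of these letters and shows no binding.

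For comparison, a longer list of 25 genes of resident macrophages was read, of which 23 were bright enough to be tested. Mice 4 to 7 were above all others for 6 of them (*Stab1*, *Pltp*, *Igf1*, *Vsig4*, *Cd5l* and *Slc40a1*) and below for 11, and 6 overlapped. Of all probes, 19.2% had these mice above and 23.2% below. The 11 included 5 lectins of the Cd209 family and *Mgl2*, the lectin closest to *Clec10a*. *Cd5l*, a secreted protein that macrophages make, had the largest range, with 3.03, 1.31, 0.90 and 2.40 in mice 4 to 7 and -1.75 to -0.20 in the others. *Slc40a1* encodes ferroportin, the exporter of iron, and ran from 0.37 to 2.06 in mice 4 to 7 and from -0.94 to -0.19 in the others. *Cd209d* and *Cd209f* stood at -1.96 to -1.44 and -2.15 to -1.31 in mice 4 to 7, against -0.54 to 0.83 and -0.58 to 0.74.

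Over the 6 mice, 3 of the 23 genes had a called positive slope on *Trem2* and 4 a called negative one. Of all probes tested, 2.22% had a called positive slope and 0.692% a called negative one. *Pltp*, which carries phospholipids between lipoproteins (0.24), *Vsig4*, a complement receptor (0.44), and *Cd5l* (0.63) rose with *Trem2*, by limma's test with adjusted p of 0.034, 0.013 and 0.023. *Cd209b* (-0.30), *Cd209d* (-0.53), *Cd209f* (-0.50) and *Cd209g* (-0.39) fell with it, with adjusted p of 0.027, 0.026, 0.010 and 0.017. The median slope of the 23 genes was -0.06, and that of all tested probes 0.01. On *Adgre1*, 3 of the 23 genes had a called positive slope and 2 a called negative one, beside 1.90% and 0.744% of all probes.

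**Figure D4:**
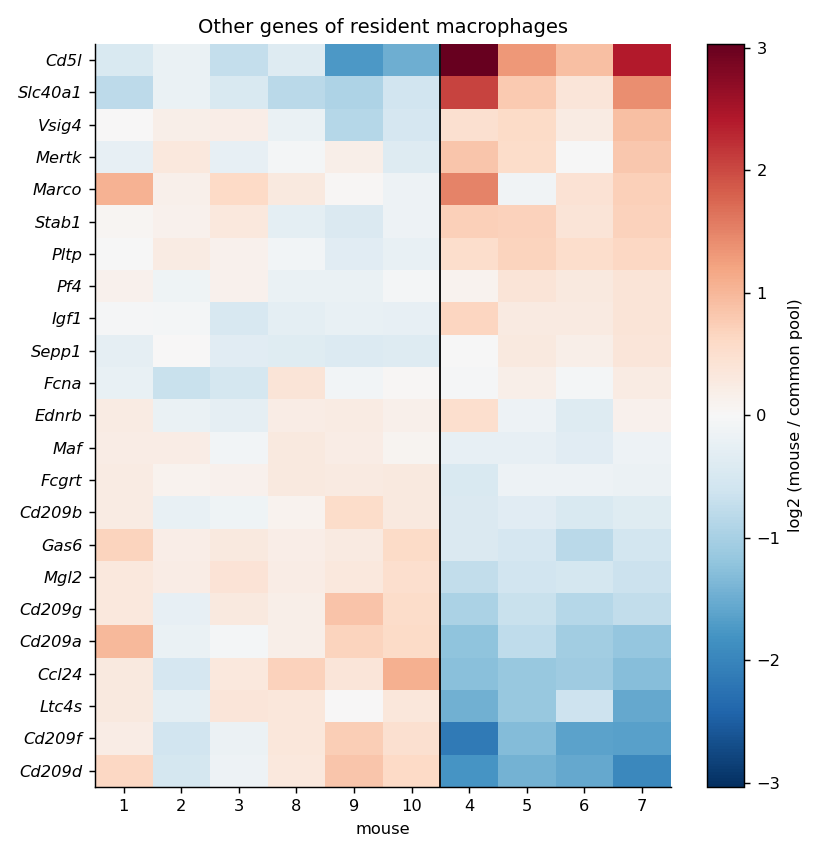
Log2 ratio over the common pool (colour) of 23 further genes of resident macrophages (rows, ordered by mouse 7) in each mouse (columns). Mice 4 to 7 stand to the right of the black line. *Cd5l* and *Slc40a1* are among the highest in mouse 7 and *Cd209d* is the lowest, at -1.96.

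Of the genes of alternative activation, 8 of 11 were tested and none had a called slope on either measure. *Tgm2* and *Klf4* were below all others in mice 4 to 7, as were 23.2% of all probes, and the other 6 genes overlapped. *Arg1*, an enzyme that splits arginine, ran from 0.10 to 1.26 in mice 4 to 7 and from -1.10 to 0.82 in the others. *Il4ra*, the receptor of interleukin 4, ran from 0.11 to 0.31 and from -0.30 to 0.29. The genes for its ligands interleukin 4 and interleukin 13 were not bright enough to be tested, nor were *Il5* and *Csf2*. *Hmox1*, which degrades haem, ran from 0.72 to 1.47 in mice 4 to 7 and from -1.74 to -0.92 in the others, and *Csf1*, the main growth factor of macrophages, overlapped (-0.37 to -0.16 and -0.21 to -0.04). *Hp*, which makes the haptoglobin that *Cd163* takes up with haemoglobin, ran from -1.70 to -0.36 and from -0.25 to 0.75.

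Genes of other cells moved with the same mice. The counts below stand beside 19.2% of all probes with mice 4 to 7 above all others and 23.2% with them below. Of the 16 pan-macrophage genes tested, mice 4 to 7 were above all others for 14, and the mean of the list lay between 0.61 and 0.86 in them and between -0.91 and 0.05 in the others. The mean of 14 genes of lipid-associated macrophages lay between 0.82 and 1.09 and between -1.61 and -0.31, with 13 of 14 above, and *Acp5* below. The pan-macrophage list holds *Adgre1* and the lipid-associated list *Trem2*, the genes by which these mice were described above. All 9 adipocyte genes were below in these mice, with a mean between -2.50 and -1.45, against -0.22 to 0.64. All 3 tested genes of blood were below as well (-2.06 to -1.34, against -0.94 to 0.51), and so were 3 of 6 genes of mesothelium (-1.31 to -0.84, against -0.57 to 0.53). The mean of the 23 further resident genes overlapped (-0.26 to -0.04 and -0.10 to 0.17). The mean of 5 dendritic cell genes lay between -0.14 and 0.00 in these mice and between 0.01 and 0.26 in the others, although each of the 5 overlapped. Of 7 monocyte genes tested, *Vcan* was above and *Ly6c1*, *Ccr2* and *Hp* below, and of 6 genes of peritoneal macrophages *Cd93* was above and *Gata6*, *Icam2* and *Selp* below. Of 2 platelet genes tested, *Treml1* was above and *Ppbp* below. Of the eosinophil list, *Siglec5* and *Ccr3* were above and *Ear1* and *Ear2* below, while the defining genes *Prg2* and *Epx* were not bright enough to be tested. The part of these other cells in the values of the 9 genes was not tested. Over the 6 mice of the slopes, 12 of the 16 pan-macrophage genes had a called positive slope on *Adgre1* and 13 on *Trem2*. For the 14 lipid-associated genes these counts were 9 and 11, and neither list had a called negative slope. Of all probes, 1.90% had a called positive slope on *Adgre1* and 2.22% on *Trem2*. *Adgre1* and *Trem2* were not fitted against themselves.

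**Figure D5:**
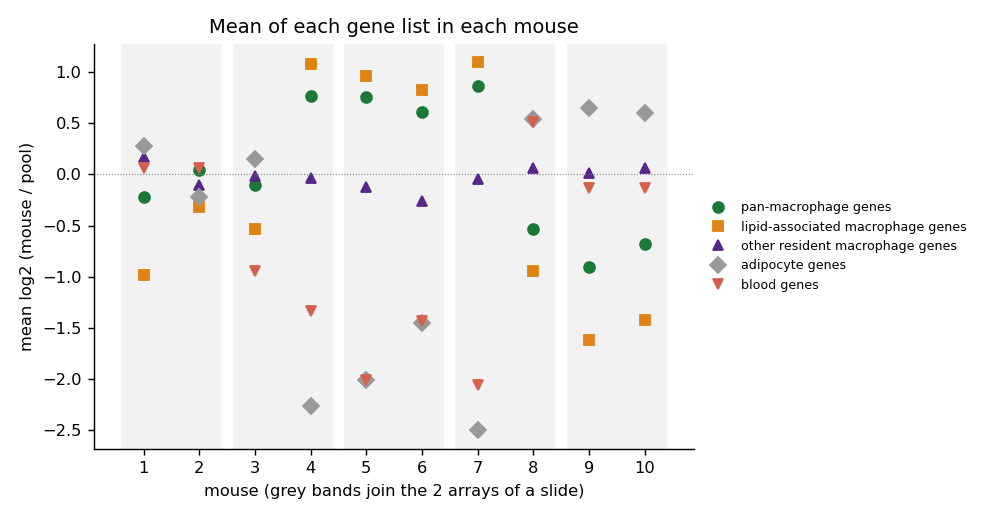
Mean log2 ratio over the common pool (y axis) of the tested genes of 5 lists in each mouse (x axis), with grey bands joining the arrays of a slide. Macrophage lists are highest and adipocyte and blood lists lowest in mice 4 to 7, while the list of further resident genes stays between -0.26 and 0.17.

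The genes with the nearest pattern over the mice were sought for each tested member. Likeness was measured as the root mean square difference of the mean-centred log2 ratios, among probes of similar SD. Nearest to *Retnla* over 9 mice was *Adrb3*, the beta-3 adrenergic receptor of adipocytes, at 0.31, followed by *Ces1d* at 0.45 and *Amy1* at 0.47. Nearest to *Folr2* over 10 mice was *Abcg1*, a cholesterol exporter, at 0.07, followed by *Amz1* and *Wsb2*. Nearest to *Cbr2* probe 1 was *Galntl1* at 0.06, to *F13a1* probe 1 *Eif4ebp1* at 0.19, to *Lyve1* *Cxcr7* at 0.22, to *Mrc1* *Adamts15* at 0.11 and to *Clec10a* *Nob1* at 0.10. There were 130 probes of similar SD to compare for *Retnla* and 10967 for *Clec10a*. How near the best of so many probes would lie to any other gene was not tested.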

How the data were processed

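Epididymal fat RNA of 10 mice was measured on two-colour arrays with 60-base probes, 2 arrays per slide, with Cy5 for the mouse and Cy3 for the common pool. The authors deposited scanner files of Agilent Feature Extraction 10.7.3.1 with the intensity of each spot and its background, not normalized, and the log10 ratio after the software's own correction. The normalized table that the authors deposited (30733 rows) holds log2 values by their fit to the Cy5 signal (r 0.994 to 0.999), with a median of 8.52 in every column; its centring and normalization are not given in the sources used here. The study's text does not describe these mice and was used for style alone.

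Mean intensity was corrected with normexp (offset 50) and normalized by loess within arrays, channels by Aquantile, in limma 3.58.1 and R 4.3.3. Control and outlier spots were dropped and equal probes averaged. A probe was tested if well above background in both dyes on at least 5 of 10 arrays. Median Cy5 intensity was 53 to 79 over a background of 32 to 37, which with the number of arrays limits precision, and no spot was saturated. A gene was represented by its brightest tested probe. Slopes were fitted in the larger cluster where mice parted as on the first component. Tests were Pitman-Morgan, limma and exact permutation (Python 3.11.15, scipy 1.17.1), with Benjamini-Hochberg adjustment at 0.05, and were tested on simulated data. Named genes were all members, the covariate genes and some genes of the lists that passed a test or bound a range. Some genes that define a cell type and some of the nearest by likeness were named as well. Other genes of the lists that passed a slope test were not named. *Arg1*, *Il4ra*, *Csf1*, *Hp*, *Pdpn* and *Slc40a1* were named for their role after their values were seen. Members, lists and tests were chosen with earlier results of these data known. Alternatives changed the background correction, scaling, filter, values, slide block and mice. 1 gene of the list of further resident genes is not reported here and was left out of its counts.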

Additional observations from a re-analysis of the deposited data

How the results depend on the processing

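Of the values recomputed under the alternatives, 656 kept their direction and their side of the threshold (values without a test stayed within the spread between mice, and counts within 1.5 times), 33 fell below it, 10 passed it, 23 changed sign and 2 moved further. All tested member probes kept their call of a Cy5 variance above that of Cy3, except in 2 settings. These were median centring (8 called, of 9935 probes in all) and no normalization between arrays (7, of 4696), against 15078 probes in the main setting. The direction held there, as the log2 of the Cy5 over Cy3 SD was 1.18 and 1.06 for *Mrc1*. For *Clec10a* it was 0.77 without normalization between arrays. Members called for *Adgre1* went from 0 to 1, *Retnla* each time, without a filter, with probes above background on all 10 arrays, with slide as a random block and with outlier spots kept, and lay between 0 and 1 when 1 mouse was left out. The setting with outlier spots kept was chosen after seeing the data. The 1 member called for *Trem2* became 0 with median centring, the scanner's log ratio, the authors' table and without the 2 farthest mice, and lay between 0 and 1 when 1 mouse was left out.

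All probes called for *Adgre1* by limma fell from 664 to 0 with median centring (1455 at an unadjusted p below 0.05), to 78 with the scanner's log ratio, to 0 in the authors' table (2733 unadjusted) and to 2 without the 2 farthest mice. Those for *Trem2* fell from 731 to 0 with median centring (1015 unadjusted), to 269 with the scanner's log ratio, to 85 in the authors' table and to 0 without the 2 farthest mice (2023 unadjusted). Leaving out 1 mouse gave 36 to 593 for *Adgre1* (138 without mouse 2, 368 without mouse 8, 46 without mouse 9, 36 without mouse 10) and 102 to 819 for *Trem2* (433 without mouse 1, 252 without mouse 2, 102 without mouse 9, 149 without mouse 10). Beyond the fewer mice in these fits, the cause was not tested.

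Every slope that changed sign had missed the threshold. With median centring, the slopes on *Adgre1* of *Lyve1* and *Cbr2* probe 1 became 0.089 and 0.030. The slope of *Clec10a* on *Adgre1* became -0.0046 with the scanner's log ratio, and that on *Trem2* became -0.030 with it, -0.057 in the authors' table, -0.0033 with log2 Cy5, -0.030 with the mean of the list and -0.027 without the 2 farthest mice. Without those mice the slopes on *Adgre1* became 0.042 for *F13a1* probe 2, 0.18 for *Cbr2* probe 1 and 0.41 for *Cbr2* probe 2, and those on *Trem2* 0.0012 for *F13a1* probe 2 and 0.20 for *Cbr2* probe 2. Leaving out 1 mouse gave slopes on *Adgre1* of -0.33 to 0.093 for *Cbr2* probe 1, -0.23 to 0.17 for *Cbr2* probe 2 and -0.019 to 0.13 for *Clec10a*, and on *Trem2* of -0.24 to 0.012, -0.15 to 0.093 and -0.051 to 0.036 for the same probes and -0.017 to 0.22 for *Mrc1*. No paired analysis was possible because the labels give 1 group. The dim probes of *Cd163*, *Timd4* and *F13a1* are limited by their signal over background.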
